A study of Mus musculus with 2 samples.

Results

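The microRNA (miRNA) genes that lie inside the Hox clusters were followed in the heart of old mice. The annotation of the mouse build mm10 (GRCm38, GENCODE M21) places 6 named miRNA genes there, Mir10a, Mir10b, Mir196a-1, Mir196a-2, Mir196b and Mir615. These 6 of the 2202 miRNA genes in the deposited tables were taken by a rule of gene name and position. The rule did not use their values, but it was set with earlier results of these data known. A 7th annotated miRNA gene inside a cluster, Gm44463 in Hoxd, had 0 reads on its own strand in both libraries. The samples were 2 small RNA libraries of 1 group, hearts of male B6CASTF1/J mice, which are hybrids of the C57BL/6J and CAST/EiJ strains, aged 18 to 20 months. The labels number them as biological replicates 1 and 2 and give each its own biosample, but both point to 1 donor record. Their spread may therefore be technical, and no test here measures the spread between animals. There was no treatment and no second group, so the data show how much of each Hox-cluster miRNA was found in the heart and how far the 2 libraries differ.

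Hox genes encode homeodomain transcription factors that give cells their position along the head-to-tail axis. Within a cluster, genes with low numbers act toward the head and genes with high numbers toward the tail. The miR-10 genes sit beside group 4 Hox genes, on the anterior side, and the miR-196 genes between group 9 and the next higher-numbered Hox gene, on the posterior side. Both families are known to repress Hox messages, and in mouse embryos miR-196a directs cleavage of the Hoxb8 message. Adult tissues often keep part of the positional Hox pattern of the embryo.

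The mature sequences show how the families are built and are printed because they decide which reads can be told apart. Capitals mark the seed (bases 2 to 8 from the 5′ end, which select targets) and the base at position 12, the position at which the 2 members of each family differ. The sequences are those of RefSeq on GRCm38.p6, which held mature sequences for 6 of the 6 genes.
mmu-miR-10a-5p: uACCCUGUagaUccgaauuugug
mmu-miR-10b-5p: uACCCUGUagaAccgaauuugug
mmu-miR-196a-5p: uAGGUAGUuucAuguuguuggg
mmu-miR-196b-5p: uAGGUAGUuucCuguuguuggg

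miR-10a-5p and miR-10b-5p share the seed ACCCUGU and differ in 1 of 23 bases, U12A with the miR-10a base given first and positions counted from the 5′ end. miR-196a-5p and miR-196b-5p share the seed AGGUAGU and differ in 1 of 22 bases, A12C with the miR-196a base first. No other miRNA in the RefSeq table carries either seed. A 5p read of miR-10a or miR-10b, and likewise of miR-196a or miR-196b, that does not reach the flanking hairpin is therefore told from its relative by the base at position 12 alone. Mir615 belongs to neither family, and its arms are shown for their own seeds, in capitals.
mmu-miR-615-5p: gGGGGUCCccggugcucggauc
mmu-miR-615-3p: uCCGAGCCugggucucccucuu

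miR-196a-5p is made from 2 hairpins, Mir196a-1 and Mir196a-2, which are printed whole because their counts cannot be read without them. Capitals mark the longest stretch that the hairpins share, 22 bases, which is the complete mature miRNA.
Mir196a-1: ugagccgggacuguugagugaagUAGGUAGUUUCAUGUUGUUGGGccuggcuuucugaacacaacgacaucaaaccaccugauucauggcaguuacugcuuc
Mir196a-2: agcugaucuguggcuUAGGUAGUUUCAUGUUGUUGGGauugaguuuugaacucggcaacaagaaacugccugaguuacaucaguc

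A read of exactly this stretch fits both hairpins, and the authors' counts leave out every read with several positions in the genome. Outside the stretch the hairpins part at the next base on either side, so a read with 1 more templated base at either end, or a read from the other arm, fits 1 hairpin. None of the other 4 genes shares so long a stretch with another miRNA hairpin. The longest was 15 bases between Mir10a and Mir10b, 14 bases between Mir615 and Mir6916 and 12 bases between Mir196b and Mir129-1. The counts are per hairpin gene, so the arms cannot be told apart.

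Mir10a (ENSMUSG00000065519.1, chr11:96317165-96317274, plus strand) lies between Hoxb4 and Hoxb5, 1.496 kb from the coding part of Hoxb4, and overlaps no other annotated gene. Mir10b (ENSMUSG00000065500.3, chr2:74726070-74726137, plus strand) lies between Hoxd4 and Hoxd8, 1.14 kb from the coding part of Hoxd4 and in introns of annotated Hoxd3 and Hoxd4 transcripts. Mir196b (ENSMUSG00000065443.1, chr6:52230081-52230165, minus strand) lies between Hoxa9 and Hoxa10 and overlaps an exon of an annotated Hoxa9 transcript. Mir196a-1 (ENSMUSG00000065546.1, chr11:96265164-96265265, plus strand) lies between Hoxb9 and Hoxb13, outside other genes. Mir196a-2 (ENSMUSG00000065488.2, chr15:102973350-102973434, plus strand) lies between Hoxc9 and Hoxc10, in an intron of a long Hoxc5 transcript. Mir615 (ENSMUSG00000076010.1, chr15:103014910-103015001, plus strand) lies in an intron of Hoxc5. The order of the genes in their clusters is drawn to scale in the map of the clusters.

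**Figure D1:**
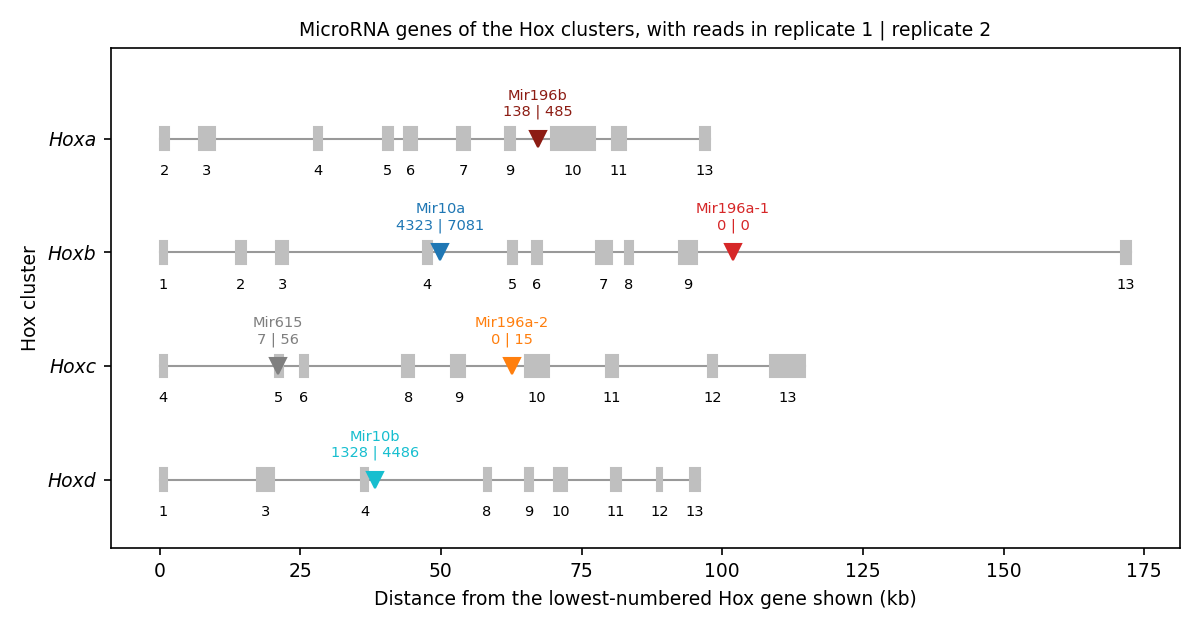
Map of the 4 Hox clusters, each turned so that its lowest-numbered Hox gene shown is at the left; the x axis is distance in kb, grey boxes are the coding spans of Hox genes with their numbers, triangles are miRNA genes, and the numbers above them are reads in replicate 1 and replicate 2. Mir10a and Mir10b, next to group 4, had 4323 and 1328 reads in replicate 1 and 7081 and 4486 in replicate 2, while Mir196b had 138 and 485 and the others 0 to 15 reads (miR-196a genes) or 7 and 56 reads (Mir615).

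Replicate 1 held 3037063 and replicate 2 held 5284446 reads in miRNA genes, so a count of 0 (floor of 3 reads) allowed up to 0.988 and 0.568 CPM, where CPM is reads per 1000000 reads in miRNA genes. Intervals are 95% intervals and cover counting error only. No molecular identifiers are recorded, so copies of 1 molecule cannot be told from separate reads, and the intervals may be too narrow. The heart muscle miRNAs Mir208a, Mir208b and Mir499 summed to 10793 and 14757 CPM in replicates 1 and 2. The libraries also stand apart in other cell type markers. The 7 epithelial miRNAs listed summed to 298 CPM in replicate 1 and 3874 CPM in replicate 2. The 3 red blood cell miRNAs summed to 8201 and 2542 CPM. Of the epithelial sum, Mir205 and Mir200c, named after their values were seen, made up 85.0 and 3614 CPM, and the other 5 summed to 213 and 259 CPM. Levels of the Hox-cluster miRNAs are therefore given for each library.

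In reads placed at 1 hairpin, Mir10a was the most abundant of the Hox-cluster miRNAs, followed by Mir10b, Mir196b and Mir615. The counts at Mir196a-1 and Mir196a-2 lack the complete miR-196a-5p reads, so the level of miR-196a is not known. The counted reads of the 6 genes together made up 0.191% (95% Wilson interval 0.186 to 0.196) of replicate 1's uniquely placed miRNA reads. In replicate 2 the share was 0.229% (0.225 to 0.234). Reads mapped to several places are missing from these totals, which also scale the CPM levels. Other miRNAs made from several hairpins may be undercounted too, so neither shares nor levels are parts of all miRNA in the heart. Of the 6, 3 (Mir10a, Mir10b and Mir196b) reached 10 reads in each library, against 14.6% of all 2202 miRNA genes. Since the libraries come from heart tissue and not from single cells, fewer cells that make a miRNA and less of it per cell cannot be told apart.

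Mir10a, the anterior miRNA of the Hoxb cluster, had 4323 reads in replicate 1 and 7081 in replicate 2. Its level was 1423 CPM in replicate 1 (exact Poisson interval 1381 to 1466) and 1340 CPM in replicate 2 (1309 to 1372), with a mean of 1382 ± 59.0 CPM (SD, n = 2). That mean placed it 58th of the 2202 genes in uniquely placed reads. With reads that fit several places included, the rank is not known. The libraries were close to each other for this gene, and its lower level exceeded every counted value of the other 5 genes.

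Mir10b, the anterior miRNA of the Hoxd cluster, had 1328 reads in replicate 1 and 4486 in replicate 2. Its level was 437 CPM in replicate 1 (414 to 461) and 849 CPM in replicate 2 (824 to 874). The mean was 643 ± 291 CPM (SD, n = 2), 81st among all genes in uniquely placed reads. Replicate 1 was the low library here. In each library Mir10b stood below Mir10a and above Mir196b.

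Mir196b, the posterior miRNA of the Hoxa cluster, had 138 reads in replicate 1 and 485 in replicate 2. Its level was 45.4 CPM in replicate 1 (38.2 to 53.7) and 91.8 CPM in replicate 2 (83.8 to 100.3), with a mean of 68.6 ± 32.8 CPM (SD, n = 2). Replicate 1 was again the low library, and Mir196b carried all 138 counted miR-196 reads of replicate 1 and 485 of the 500 in replicate 2.

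Mir615, in the Hoxc5 intron, had 7 reads in replicate 1 and 56 in replicate 2. These were 2.30 CPM (0.927 to 4.75) and 10.6 CPM (8.005 to 13.8). Mir196a-2, the posterior miRNA of the Hoxc cluster, had 0 reads in replicate 1 and 15 in replicate 2, and the 15 reads were 2.84 CPM (1.59 to 4.68). Mir196a-1, the posterior miRNA of the Hoxb cluster, had 0 reads in both libraries. The ranges over the 2 libraries did not overlap between Mir10a, Mir10b, Mir196b and Mir615, in that order from high to low, whereas those of Mir615 and Mir196a-2 overlapped. The low counts at Mir196a-1 and Mir196a-2 do not measure miR-196a, because complete reads of its 5p arm fit both hairpins and were left out, and reads mapped to several places were 40.7% of all reads in replicate 1 and 32.5% in replicate 2.

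**Figure D2:**
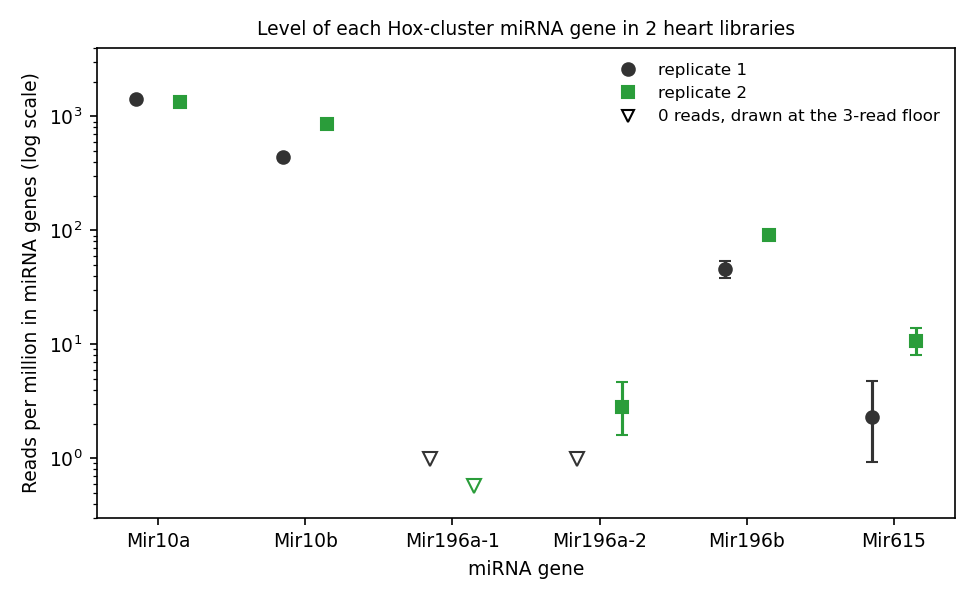
Level of each gene in CPM (log scale), with circles for replicate 1 and squares for replicate 2; bars are 95% exact Poisson intervals, and open triangles mark 0 reads, drawn at the floor of 3 reads. Mir10a lies at 1423 and 1340 CPM in replicates 1 and 2, while Mir10b, Mir196b and Mir615 are each higher in replicate 2.

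In counted reads, anterior exceeded posterior in both libraries. The miR-10 genes held 5651 reads against 138 at the miR-196 genes in replicate 1, a ratio of 40.9 (exact Clopper-Pearson interval 34.6 to 48.8). In replicate 2 they held 11567 reads against 500, a ratio of 23.1 (21.2 to 25.4). On the log2 scale the ratio averaged 4.94 ± 0.58 (SD, n = 2), well above the spread between the libraries. The ratio is of reads placed at 1 hairpin, so the miR-196a reads that fit both hairpins are missing from its lower part, and it is not a ratio of all miR-10 to all miR-196. Position and family cannot be told apart in it, because its anterior genes are all miR-10 genes and its posterior genes all miR-196 genes. Mir615, which belongs to neither family and lies inside Hoxc5, had fewer reads than Mir196b. Mir196b exceeded Mir615 19.7-fold in replicate 1 (9.32 to 50.0) and 8.66-fold in replicate 2 (6.56 to 11.6).

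Within the miR-10 family, Mir10a exceeded Mir10b 3.26-fold in replicate 1 (3.06 to 3.46) and 1.58-fold in replicate 2 (1.52 to 1.64). On the log2 scale this was 1.18 ± 0.74 (SD, n = 2), so the direction was shared and the size was not. Mir10a exceeded Mir196b 31.3-fold in replicate 1 (26.4 to 37.4) and 14.6-fold in replicate 2 (13.3 to 16.0). Mir10b exceeded Mir196b 9.62-fold in replicate 1 (8.07 to 11.6) and 9.25-fold in replicate 2 (8.42 to 10.2), and these intervals overlap. Mir10b and Mir196b, from different clusters and from opposite sides of them, had nearly the same ratio in both libraries, while the intervals of each ratio that holds Mir10a did not overlap between them. A like shift between the libraries was not particular to this pair. The log2 ratio, replicate 1 over replicate 2, was -0.96 for Mir10b and -1.01 for Mir196b. Outside the Hox clusters it was -0.98 for Mir214 and -1.02 for Mir503, which were named for these values. The ratios within a library were left untested, since the smallest p of an exact sign-flip test over 2 libraries is 0.5.

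**Figure D3:**
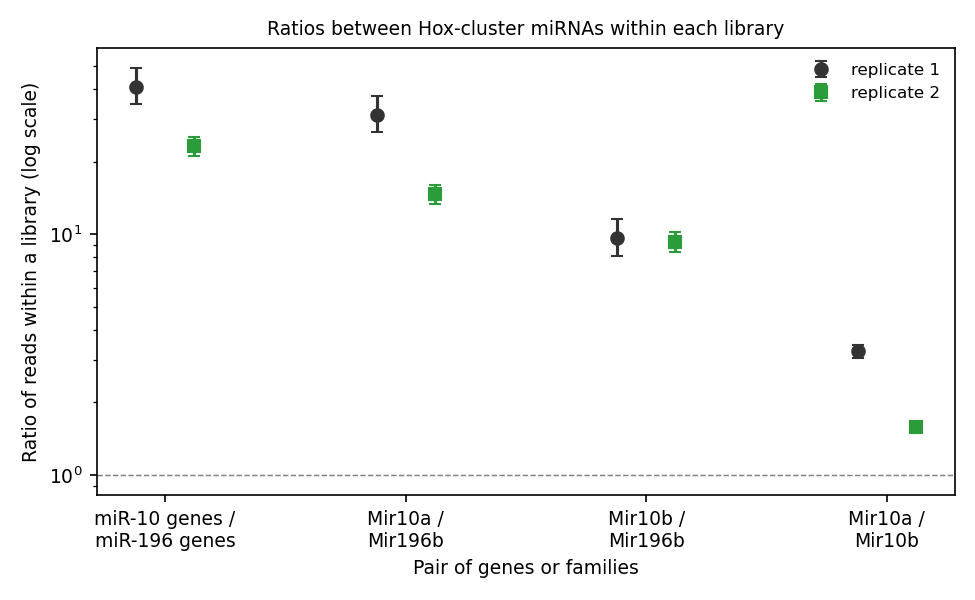
Ratio of reads between families or genes within each library (log scale), with circles for replicate 1, squares for replicate 2 and bars for 95% exact intervals; the dashed line marks equal reads. The ratios of Mir10b to Mir196b lie at 9.62 and 9.25, while the other 3 ratios are higher in replicate 1.

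By cluster, Hoxb led through Mir10a alone, whose share of the 6 genes' reads was 74.6% (Wilson interval 73.4 to 75.7) in replicate 1 and 58.4% (57.5 to 59.3) in replicate 2. Hoxd, with Mir10b, had shares of 22.9% (21.8 to 24.0) in replicate 1 and 37.0% (36.1 to 37.9) in replicate 2. Hoxa, with Mir196b, had shares of 2.38% (2.02 to 2.81) in replicate 1 and 4.00% (3.67 to 4.36) in replicate 2. Hoxc, with Mir196a-2 and Mir615, took 0.121% (0.0585 to 0.249) and 0.586% (0.465 to 0.738) in replicates 1 and 2. For these uniquely placed reads the order of the clusters was the same in both libraries, and none of the intervals of a cluster overlapped between them. The shares of Hoxb and Hoxc lack the complete miR-196a-5p reads, which fit a gene in each, so the order with those reads included is not known.

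The libraries were compared gene by gene with an exact binomial test given the library totals, adjusted by Benjamini-Hochberg over the 424 genes whose summed count was 10 or more. It tests for more than counting error and says nothing of conditions. Of the 6 Hox-cluster genes 5 could be tested and all 5 differed, against 52.8% of all tested genes. Among them 4 were higher in replicate 2 (Mir10b, Mir196b, Mir615 and Mir196a-2), against 30.9% of all tested genes called in that direction. Mir10a was higher in replicate 1, against 21.9% of tested genes, and Mir196a-1 had no reads to test. Mir615 and Mir196a-2 reached the count minimum only through replicate 2, the library in which they are high. Of the 3 that reached it in each library, 2 were higher in replicate 2 (Mir10b and Mir196b) and 1 in replicate 1. The exact test of edgeR, with a dispersion common to all genes, asks for more than the usual spread between the libraries. That dispersion (coefficient of variation 40.5%) was estimated from these same 2 libraries. Few calls were therefore likely from the start, and a gene left uncalled is not shown to be alike in both libraries. The edgeR test called 0 of the 5 Hox-cluster genes tested, against 2.83% of all tested genes. It gave 2 of the 5, Mir615 and Mir196a-2, an unadjusted p under 0.05.

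Mir10a had a log2 ratio, replicate 1 over replicate 2, of 0.09 (exact interval 0.03 to 0.14; binomial adjusted p = 0.00418), a 1.06-fold difference that was called because of its many reads. It was smaller than the median absolute log2 ratio of 0.38 over the 321 genes that reached 10 reads in each library. Mir10b had a log2 ratio of -0.96 (-1.05 to -0.87; binomial adjusted p = 3.25e-110), and Mir196b one of -1.01 (-1.30 to -0.74; binomial adjusted p = 8.04e-14). Log2 ratios below -1 were found at 33 of those 321 genes, of which Mir196b was 1 and Mir10b was not. In the exact test of edgeR the adjusted p was 1 for each of Mir10a, Mir10b and Mir196b.

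Mir615 had a log2 ratio of -2.20 (-3.58 to -1.06; binomial adjusted p = 2.78e-05, edgeR adjusted p = 0.642), from 7 reads in replicate 1. Mir196a-2, with 0 reads in replicate 1 and 15 in replicate 2, had a log2 ratio whose exact interval has no lower limit and an upper limit of -1.04 (binomial adjusted p = 0.00428, edgeR adjusted p = 0.241). Markers of cell types moved between the libraries as well. Of the 3 heart muscle miRNAs, Mir208a (log2 ratio -0.82) and Mir208b (-1.21) were higher in replicate 2. Mir499 (0.02) was not called. Of the 7 epithelial miRNAs, all with reads in both libraries, 4 were higher in replicate 2 (Mir205, Mir200c, Mir141 and Mir203) and 2 in replicate 1 (Mir200b and Mir429). The levels of Mir205 were 2.30 and 1963 CPM, and those of Mir200c 82.6 and 1652 CPM, in replicates 1 and 2. Of the 4 endothelial miRNAs, 3 could be tested and all 3 were higher in replicate 2, with sums of 86801 CPM in replicate 1 and 114723 CPM in replicate 2. The 3 red blood cell miRNAs were higher in replicate 1 in sum, at 8201 against 2542 CPM, with Mir144 and Mir451a higher there and Mir486 higher in replicate 2. The 2 smooth muscle miRNAs summed to 45692 CPM in replicate 1 and 40641 CPM in replicate 2. The part of these cell types in the levels of the Hox-cluster miRNAs was not tested.

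**Figure D4:**
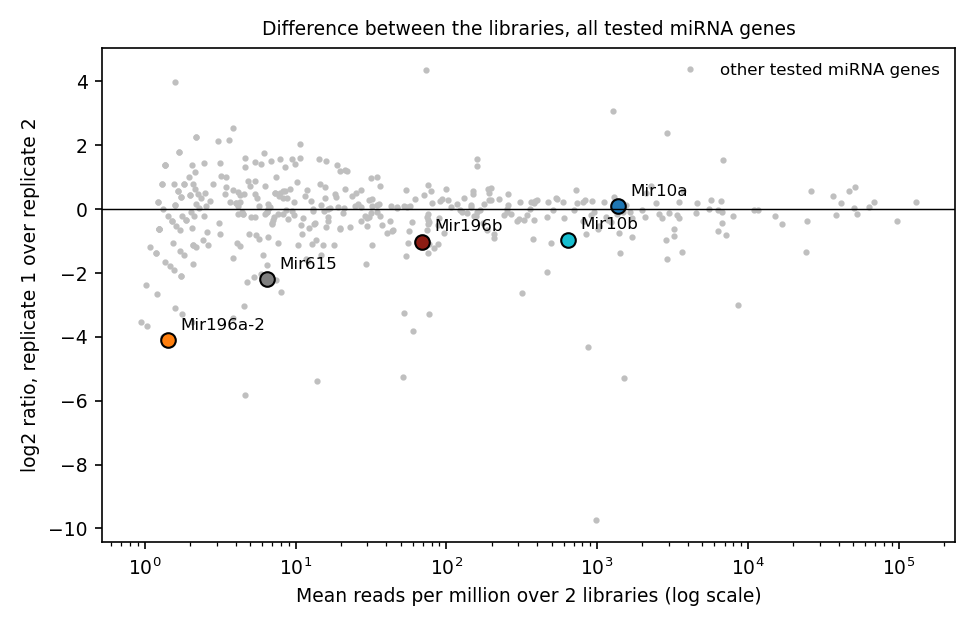
Log2 ratio of replicate 1 over replicate 2 against the mean level in CPM (log scale) for the 424 tested miRNA genes, with the Hox-cluster genes as large coloured circles and the rest in grey; a count of 0 is drawn as 0.5 reads. Mir10a lies at 0.09, and Mir10b (-0.96), Mir196b (-1.01), Mir615 (-2.20) and Mir196a-2 lie below 0.

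The column for reads on either strand gave the same counts as the sense column at all 6 genes in both libraries, with 1 exception. At Mir10a in replicate 2 it held 7085 reads, the 7081 sense reads and 4 on the other strand. None of the 6 overlaps another miRNA gene, on either strand, while 64 of the 2202 genes have a miRNA gene on the opposite strand. The nearest miRNA gene lay 24.9 kb from Mir10b and farther from the other 5, so no annotated miRNA gene shares bases with them in the genome.

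The closest relatives of miR-10 outside the Hox clusters are miR-99a, miR-99b and miR-100, whose 5p arms carry the seed ACCCGUA in place of ACCCUGU. They are printed for comparison with the miR-10 sequences above, with the seed in capitals.
mmu-miR-99a-5p: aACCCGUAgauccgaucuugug
mmu-miR-99b-5p: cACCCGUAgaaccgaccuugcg
mmu-miR-100-5p: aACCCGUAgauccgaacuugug

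The 2 miR-10 genes were far below these relatives. In replicate 1 the miR-10 genes held 5651 reads against 175948 at the 3 relatives, which were 31.1-fold higher (30.3 to 31.98). In replicate 2 they held 11567 against 226634 reads, and the relatives were 19.6-fold higher (19.2 to 20.0). Mir99a had 36867 ± 7336 CPM, Mir99b 6820 ± 4732 CPM and Mir100 6723 ± 1428 CPM (SD, n = 2 for each). Beyond counting error Mir99a and Mir99b were higher in replicate 1 and Mir100 was higher in replicate 2, for a median log2 ratio of 0.41 beside -0.07 over all tested genes. Closest to Mir10a in mean level were Mir455 (1418 CPM) and Mir98 (1389 CPM) above and Mir676 (1363 CPM) and Mir28a (1291 CPM) below. Closest to Mir10b were Mir127 (722 CPM) and Mir20a (707 CPM) above and Mir181d (607 CPM) and Mir25 (594 CPM) below. These 8 genes are named for their mean in uniquely placed reads over 2 libraries only.

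The Hox messages were not measured, but their sequences show where the families could act. Matches to the seed were searched on the sense strand of the longest annotated 3′ untranslated region of each protein-coding gene (GENCODE M21), which had a median length of 966 bases for the 38 Hox genes searched and 961 bases for all 21019 genes searched. The match to the miR-196 seed, ACTACCT, was present in 8 of the 38 Hox genes (21.1%) and in 6.10% of all genes. Hoxa7 held 4 such matches, Hoxc8 held 2, and Hoxa4, Hoxa5, Hoxa9, Hoxb1, Hoxb6 and Hoxb7 held 1 each. The match to the miR-10 seed, ACAGGGT, was present in 3 Hox genes (7.89%), Hoxa3, Hoxb3 and Hoxd1, and in 12.5% of all genes. Per kb, the miR-196 match occurred 0.327 times in Hox genes and 0.0455 times in all genes, and the miR-10 match 0.0818 and 0.0997 times.

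Hoxb8, the known cleavage target of miR-196a in the mouse, was not among the 8 because its site pairs with the seed through a G:U pair. The site is printed to show that pairing, with the bases that face the seed in capitals (GRCm38, chr11:96284888-96284909, plus strand).
Hoxb8 site: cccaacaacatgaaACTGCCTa

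All 22 bases of miR-196a-5p pair with this site without a gap, 21 by Watson-Crick pairs and 1 by a G:U pair at position 5 of the miRNA. No other window in the Hox 3′ untranslated regions paired with more than 19 of the 22 bases in the same ungapped search. Such matches describe sequence only, and the libraries hold no measure of these messages.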

How the data were processed

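Small RNA libraries from total RNA, with a size range under 30 per the labels, were sequenced from hearts of 1 group. The values are raw read counts, deposited for each miRNA gene (build mm10 per the labels, GENCODE M21 per the text beside each table) in 3 columns, for either strand and for each strand, below 4 summary lines of unassigned reads. The aligner and counter are not stated in the labels or that text. The strand column with more reads in miRNA genes was used as sense. Summary lines stayed out of totals: reads mapped to several places were 40.7% and 32.5%, unmapped reads 19.4% and 34.3% and reads outside miRNA genes 7.79% and 6.27% of all reads in replicates 1 and 2. Reads that carry CAST/EiJ bases absent from the reference could be lost, and ligation can favour some miRNAs, which the counts cannot show. A read spans a mature miRNA, so levels were not divided by length.

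Counts were scaled to reads per 1000000 in miRNA genes. Tests, intervals and figures used Python 3.11.15, SciPy 1.17.1 and matplotlib 3.10.9, and scaling and dispersion used edgeR 4.0.16 and DESeq2 1.42.0 (size factors only) in R 4.3.3. The binomial test had a threshold of 0.05 and was tested on simulated data. A count of 0 was taken as 0.5 reads in log2 ratios. The libraries were compared over genes and were not the same library deposited again (chi-square of 579 per degree of freedom). Alternatives were the scaling, the strand column, the count minimum, the replaced 0, the edgeR test and leaving out a library. The genes named included the 6 members, other miRNA genes inside a Hox cluster, Mir99a, Mir99b and Mir100. Also named were the 2 genes next above and below Mir10a and Mir10b in mean level among genes with 10 reads or more in each library. Mir214 and Mir503 were named for their log2 ratios. The members and lists were chosen with earlier results of these data known. Of the leukocyte list Mir142hg is not in the table and the other 4 miRNAs summed to 6557 and 7238 CPM in replicates 1 and 2, and Mir206 of skeletal muscle had 6.26 and 4.92 CPM. Of the Hox genes, 1 was left out of the map and of the seed-match search, and is not reported here.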

Additional observations from a re-analysis of the deposited data

Results flagged for a closer look

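Reads outside the sense counts were seen in 2 places that bear on the Hox-cluster miRNAs. At Mir10a in replicate 2, 4 reads lay on the other strand, and 0 lay there in replicate 1. Whether the libraries differ in these few reads was not tested. Reads mapped to several places, which no gene count holds, numbered 3857758 in replicate 1 and 6355706 in replicate 2, and how many of them are miR-196a cannot be read from the files.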

How the results depend on the processing

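Directions of the 5 library differences and of both ratios were kept under every alternative run. Mir10a averaged 1116 CPM scaled to uniquely placed reads, 409 CPM scaled to all reads and 1863 CPM in the column for either strand, against 1382 CPM as reported. On the same scales in that order, Mir10b averaged 520, 185 and 867 CPM, against 643 CPM as reported. Mir196b averaged 55.5, 19.7 and 92.5 CPM, against 68.6 CPM. Those scales have other totals by construction. Under the exact test of edgeR with its common dispersion, 0 of the 6 genes (2 at an unadjusted p under 0.05) and 12 of all tested genes were called, against 5 and 224 by the binomial test, and the log2 ratios of Mir10a, Mir10b and Mir196b (0.11, -0.93 and -0.99) no longer passed (edgeR adjusted p = 1 for each). Scaling to all reads moved the median log2 ratio by 0.25, with Mir10a at 0.34, Mir10b at -0.71 and Mir196b at -0.77, all still called by the binomial test; both scalings by other totals were chosen for the library differences after the data were seen. Without replicate 1 or replicate 2, each value is that of the other library, as given. Counting error is wide at Mir615, whose 7 reads in replicate 1 gave an interval of 0.927 to 4.75 CPM, while the counts at Mir196a-1 and Mir196a-2 lack reads that fit both hairpins at any depth.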
